A study of Mus musculus with 24 samples.

Results

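The regions described here had an accessibility peak in epidermal stem cells (EpdSCs) before induction of SOX9 and in none of the later in vivo lists. They were chosen by merging the peaks of the 5 in vivo lists that overlapped by at least 1 bp and keeping the regions with a peak in the D0 list and in none of the W1, W2, W6 and W12 lists. This left 1424 D0-only regions of 98240 in all, or 2.56% of the 55667 regions with a D0 peak. Each D0-only region held a single D0 peak.

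The study profiled open chromatin by ATAC-seq in 24 mouse samples, 2 in each of 12 groups. The in vivo groups were EpdSCs of male CD1 mice of the genotype K14rtTA; TRE-myc-Sox9, in which the Krt14 promoter drives the doxycycline (DOX)-responsive activator in basal keratinocytes and the activator switches on a MYC-tagged Sox9. The D0 mice were at postnatal day 21 and had not been induced, and the W1, W2 and W6 mice had been on DOX for 1, 2 and 6 weeks and were at postnatal day 28, 35 and 63. The W12 cells came from newborn skin grafted onto immunocompromised Nude female hosts and kept on DOX for 12 weeks. All 5 groups were sorted from back skin as cells negative for CD31, CD45, CD117, CD140a and CD34 with high CD49f and high Ly6A, and each replicate pooled several mice. The 7 culture groups were keratinocytes from newborn back skin: noDOX, which carries the Sox9 construct without DOX, and 6 arms that received 1 µg per ml of DOX, namely WT-SOX9, ΔHMG-SOX9 (without the DNA-binding HMG domain), ΔTA-SOX9 (without the transactivation domain), AFOS (a FOS derivative that blocks DNA binding by AP1), SOX9+AFOS and SOX9+ARID1a (ARID1a being part of the SWI/SNF remodelling complex). All carried K14rtTA, with TRE-myc-Sox9 in the noDOX, WT-SOX9, SOX9+AFOS and SOX9+ARID1a cells, TRE-myc-Sox9noHMG or TRE-myc-Sox9noTA in the mutant arms, TRE-FLAG-AFOS in both AFOS arms and TRE-ARID1a in the last. DOX day 3 was given in the labels for some samples of WT-SOX9, ΔHMG-SOX9 and ΔTA-SOX9. Time on DOX and age rise together in vivo, and no uninduced list of later age was used here, so DOX, age and, at W12, grafting cannot be told apart.

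Peaks were called by the authors on the pooled reads of both replicates, which leaves 1 list for each group. The values below rest on these merged lists and so carry no spread between the replicates, and no test between conditions was made. Signal of the single replicates was not analysed here. Shares of regions carry 95% Wilson intervals and differences of shares carry Newcombe intervals, both of which cover counting error over regions only. The in vivo lists held 57334 to 75956 peaks and the culture lists 49458 to 60231, and the read depth is unknown. The peak score is a depth-normalised score whose lowest value is 3 in each list. A peak of score 3 did not rest on the same evidence in each list, as the lowest −log10 q-value was 14.5 at D0 and, in order of the 4 later lists, 9.37, 4.21, 5.74 and 10.1. Peaks at the promoters of Krt5 (scores 12.9 to 24.1), Krt14 (13.2 to 23.7) and Itga6 (10.5 to 21.1), which encode the basal keratins and the CD49f integrin, were present in all 5 in vivo lists. Ptprc (CD45) and Kit (CD117) had none within 1 kb of a start site in any of them. Pdgfra (CD140a) had one in all 5 lists (9.23 to 13.5) and Pecam1 (CD31) in 4, with a score of 9.21 at D0, no peak in the W1 list, and 38.3, 42.2 and 41.4 in the W2, W6 and W12 lists. Cd34 had none at D0, W1 or W2 and had one at W6 (5.90) and W12 (3.03). Peaks at Pdgfra, Pecam1 and Cd34 were thus present in cells sorted as negative for their antigens, and the part of other cells in the lists was not tested. A peak that lies within the last exon of Sox9, which a transgene copy can give, was present at D0 (13.5), W2 (15.1), W6 (9.22) and W12 (8.84) and absent from the list labelled W1. The D0-only regions depend on both the D0 and the W1 label, and D0 and W1 below stand for the lists with those labels. In culture this Sox9 peak was present at noDOX (3.71) and with SOX9+AFOS (5.11) and SOX9+ARID1a (3.71) and in none of the other 4 lists, WT-SOX9 included, so it does not check the labels of the culture lists.

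EpdSCs sit in the basal layer, self-renew and send daughters upwards to form the skin barrier, and their enhancers are known to be bound by TP63, AP1, GATA and TFAP2 factors. GATA3 takes part in the epidermal fate and in barrier formation. SOX9 is a hair follicle factor that adult EpdSCs lack, and as a pioneer factor it can bind its motif in closed chromatin. An enhancer that loses its factors or its remodellers is covered by nucleosomes again, and its ATAC-seq peak is lost.

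Binding-site letters were sought on both strands in the central 200 bp of each D0 peak. GATA stands for AGATAA, which reads TTATCT from the opposite strand. Such matches were present in 20.4% of D0-only regions (290 of 1424), against 11.2% of all D0 regions. To show what such regions look like, the central 200 bp of the 4 highest-scoring D0-only regions with a GATA match follow, as the plus strand of the C57BL/6J reference (GRCm38), 5′ to 3′, with the match in capitals. The CD1 mice of the study may differ from it.
chr3:153940170-153940369, intron of Acadm: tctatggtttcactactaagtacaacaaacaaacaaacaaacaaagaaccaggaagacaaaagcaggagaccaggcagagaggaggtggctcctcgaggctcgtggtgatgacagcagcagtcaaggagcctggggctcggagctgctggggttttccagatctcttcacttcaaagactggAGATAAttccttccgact
chr15:62358530-62358729, intron of Pvt1, nearest start Myc: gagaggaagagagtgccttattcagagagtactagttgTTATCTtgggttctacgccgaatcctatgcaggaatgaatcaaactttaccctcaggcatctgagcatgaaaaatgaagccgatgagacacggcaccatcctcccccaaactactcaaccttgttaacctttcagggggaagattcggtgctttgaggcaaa
chr1:35399806-35400005, intergenic, nearest start Plekhb2: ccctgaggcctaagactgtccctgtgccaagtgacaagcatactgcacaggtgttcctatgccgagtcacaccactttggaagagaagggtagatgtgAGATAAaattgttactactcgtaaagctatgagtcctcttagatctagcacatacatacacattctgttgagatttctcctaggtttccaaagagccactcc
chr3:68499584-68499783, intron of Schip1: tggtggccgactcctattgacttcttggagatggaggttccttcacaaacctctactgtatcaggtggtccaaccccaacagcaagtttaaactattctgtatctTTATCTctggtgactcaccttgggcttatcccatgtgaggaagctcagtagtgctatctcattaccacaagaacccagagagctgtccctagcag

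AP1 stands for TGACTCA, read in either direction, and was matched in 17.3% of D0-only regions (247 of 1424), against 18.1% of all D0 regions. The 4 highest-scoring of these regions, printed in the same way with the AP1 match in capitals, were the following. The Schip1 region above also held an AP1 match.
chr7:48658082-48658281, intergenic, nearest start Mrgprb3: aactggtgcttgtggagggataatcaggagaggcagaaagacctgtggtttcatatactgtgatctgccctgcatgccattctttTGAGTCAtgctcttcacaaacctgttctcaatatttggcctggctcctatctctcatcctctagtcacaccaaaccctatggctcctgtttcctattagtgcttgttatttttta
chr7:12903518-12903717, non-coding exon sequence of Zscan22: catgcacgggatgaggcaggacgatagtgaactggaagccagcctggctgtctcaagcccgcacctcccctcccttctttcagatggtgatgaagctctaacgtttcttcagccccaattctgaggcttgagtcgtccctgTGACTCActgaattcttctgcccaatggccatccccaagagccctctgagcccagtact
chr1:51250349-51250548, intron of 9330175M20Rik, nearest start Cavin2: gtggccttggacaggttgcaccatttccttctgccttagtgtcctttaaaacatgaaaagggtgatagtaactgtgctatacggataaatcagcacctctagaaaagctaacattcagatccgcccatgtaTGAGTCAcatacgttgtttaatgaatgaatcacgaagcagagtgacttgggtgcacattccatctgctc
chr16:41969327-41969526, intron of Lsamp: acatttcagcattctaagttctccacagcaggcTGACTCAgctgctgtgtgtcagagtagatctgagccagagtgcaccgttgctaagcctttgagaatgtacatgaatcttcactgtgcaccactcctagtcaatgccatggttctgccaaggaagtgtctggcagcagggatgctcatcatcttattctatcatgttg

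In each of these 8 windows the letters occurred once. Over the D0-only regions, 2.32% held 2 or more GATA matches (33 regions), against 1.03% of the other 54243 D0 regions. Only 0.632% held 2 or more AP1 matches (9 regions), against 1.61% of the other D0 regions. Both kinds of match were present together in 3.72% (53 regions, against 2.34%), and neither in 66.0% (940 regions, against 73.3%).

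The D0-only regions were weak peaks for the most part, and this is what the rule allows rather than a result, since a weak peak is easily missed in a second list. Their median D0 score was 3.73 (quartiles 3.30 and 4.47), against 10.5 (5.56 and 21.8) for the other D0 regions. Their median fold enrichment over local background was 6.03 against 8.95, their median −log10 q-value 18.4 against 55.8 and their median width 348 bp against 557 bp. Of the 1424 regions, 564 (39.6%) had a score under 3.5, 239 (16.8%) reached 5 and 15 (1.05%) reached 10. Of the D0 regions with a score from 3 to 3.5, 14.4% were D0-only, and this share was 2.80% at 5 to 6 and 0.0533% at 10 and over.

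**Figure D1:**
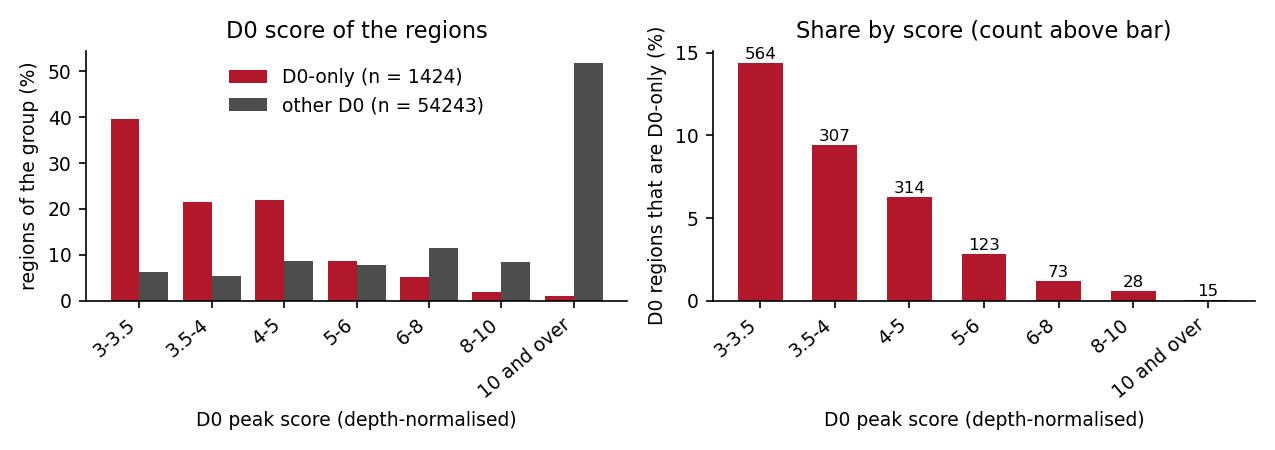
Left, share of D0-only (red, n = 1424) and other D0 regions (grey, n = 54243) in bins of the D0 peak score, a depth-normalised score with no unit. Right, share of all D0 regions of each bin that were D0-only, with their number above the bar. The D0-only regions sit at low scores, with 564 of them under 3.5 and 15 at 10 or over.

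The regions nearest to the edge of the rule were picked by the scores that the rule used, so their closeness to that edge is no result. The 3 lowest-scoring members were near Tpd52 (D0 score 3.0009), 2010111I01Rik (3.0010) and Asah2 (3.0015). The 3 D0 regions kept out by the weakest single later peak were near Efnb1 (D0 score 3.7884), Gm7879 (3.7884) and Hsf2 (4.1269), and in each the only later peak was a W12 peak of score 3.0051. Of the 5211 D0 regions that were kept out by 1 later list, 550 (10.6%) had a later score under 3.5. Conversely, 178 D0-only regions (12.5%) had a later in vivo peak within 500 bp that did not touch them, and 329 (23.1%) had one within 1 kb. The median gap to the nearest later peak was 3281 bp.

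A later list need not lose a region for good. Without the W12 list in the rule 2084 regions qualified, and without the W1 list 5684 did. Most of the latter, 4068, were the regions present at D0 and W1 only, the class most like the D0-only regions. The regions found in 1 list alone numbered 1424 for D0, 4600 for W1, 2531 for W2, 7954 for W6 and 5272 for W12, or 2.56%, 8.02%, 4.16%, 10.8% and 7.57% of each list's regions. These counts hold for the lists as deposited, where D0 had the fewest peaks and the highest minimum −log10 q-value (14.5, against 4.21 to 10.1). With all 5 lists cut to equal length 2285 regions were D0-only, and with a common −log10 q-value minimum 4526 were (8.13%), so no order of the lists is read from them.

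The 12 D0-only regions with the highest D0 scores lay mostly outside genes or in introns, with 5 between genes, 6 in introns and 1 in the Zscan22 gene in non-coding exon sequence. GATA matches were present in 5 of them and AP1 matches in 5, with both in the Schip1 region. The strongest was chr3:153939998-153940541 in an intron of Acadm, which encodes an enzyme of mitochondrial fatty acid oxidation, 1596 bp from the start site. Its D0 score was 32.1, its fold enrichment 7.59, and it had no peak in any of the 7 culture lists. A pair of strong regions lay 38.1 kb apart in a stretch of chromosome 1 whose nearest protein-coding start, that of Plekhb2, is 522250 and 560919 bp away. The stronger, chr1:35438304-35438845, had a D0 score of 31.8 and a fold enrichment of 21.6, the highest of all D0-only regions, held neither a GATA nor an AP1 match and had a culture peak in the AFOS list alone (10.1). The other, chr1:35399654-35400157, had a D0 score of 14.2, held a GATA match and had no culture peak.

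The region chr7:48657908-48658456, 14371 bp from the start of Mrgprb3, a Mas-related receptor gene, is one of the few strong members that was also open in culture. Its D0 score was 28.4. In culture its score was 14.9 without DOX, 15 with ΔHMG-SOX9, 13.5 with ΔTA-SOX9 and 14.7 with AFOS, whereas it was 3.05 with SOX9+AFOS and 3.46 with SOX9+ARID1a, and the WT-SOX9 list had no peak there. The 3 lists of cells that had full-length SOX9 thus held the lowest values or none, and all 4 other lists had values of 13.5 or more. This is the AP1-matched sequence printed first above.

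A different pattern was seen at chr7:120119768-120120151 in an intron of Tmem159, which encodes a lipid droplet protein. It had a D0 score of 13.8 and was open in all 7 culture lists, at 11.6 without DOX, 5.82 with WT-SOX9 and 6.27 with SOX9+AFOS, and between 9.82 and 17.8 in the other 4. The region in a Schip1 intron (chr3:68499463-68499904, D0 score 12.1) was open at noDOX (5.72) and with ΔTA-SOX9 (6.95) only. The region chr1:51250161-51250737 (14.2), 38677 bp from the start of Cavin2, a gene of the caveola coat, had a culture peak with ΔTA-SOX9 alone (3.96).

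The remaining 5 of the 12 had D0 scores of 12.1 to 25.4 and no culture peak. The region chr15:62358359-62358901 (17.1, GATA match) lay in an intron of Pvt1, a non-coding gene, 371208 bp from the start of Myc, the growth-promoting transcription factor that is its nearest protein-coding gene. The region in Zscan22, a zinc finger gene, scored 14.6, and one in an intron of Lsamp, which encodes an IgLON adhesion protein, scored 12.4. A region 2404 bp from Gm13283, a predicted gene, scored 25.4, and 23.7% of the 32-base words of its central 200 bp occur more than once in the genome, so the placement of some of its reads is uncertain.

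Members near genes of known epidermal roles were described by lists of genes chosen with earlier results of these data known, each region being given to its nearest protein-coding start. Among the 20 transcription factors of epidermal fate, 5 genes had 8 D0-only regions, which is 2.01% of the 398 D0 regions of the list, beside 2.56% over all D0 regions. None of the 8 had a peak in any culture list, as was the case for 77.0% of all D0-only regions. The highest scores were 6.85 in an intron of Barx2, a homeobox gene, and 4.83 near Grhl3, a grainyhead factor needed for the skin barrier, and both held a GATA match. Gata3 had 2 (4.13 and 3.17), at 991105 and 430158 bp from its start, among 78 D0 regions, and Bcl11b and Prdm1 had 1 each (3.53 and 3.11).

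Of the 14 basal-layer and adhesion genes, 4 had a D0-only region each, or 2.94% of the list's 136 D0 regions. The strongest, chr15:74998780-74999385 at 9.66, lay 1052 bp from the start of Ly6a, the gene of the antigen on which all 5 in vivo groups were sorted as high. Of the 32-base words of its central 200 bp, 62.1% occur more than once in the genome, where Ly6 genes have close relatives, so its reads may belong elsewhere. W1, W6 and W12 had no peak within 1 kb of the Ly6a start, and W2 had one (5.39) that did not touch the member. Weaker ones were near Col17a1 (3.66), which encodes a hemidesmosome collagen, and Lama3 (3.14), which encodes a laminin chain of the basement membrane. Of the 19 suprabasal and cornified-layer genes, Tgm3, a transglutaminase, and Krt1, a suprabasal keratin, had 1 each (4.76 and 4.05), or 2.86% of the list's 70 D0 regions, close to the 2.56% of all D0 regions. The Krt1 region was also open at noDOX (3.89) and with SOX9+ARID1a (3.61) and was absent from the 5 other culture lists.

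The NOTCH pathway, which drives EpdSCs to differentiate, had 7 D0-only regions near 7 of its 14 genes, or 3.8% of the list's 184 D0 regions, beside 2.56% over all D0 regions. The strongest was near Rbpj, the DNA-binding partner of cleaved NOTCH (8.34, GATA match, 78774 bp from the start), with no culture peak. The region near Nrarp, a feedback inhibitor, had a D0 score of 4.57 and was open in all 7 culture lists, at 15.9 without DOX, 4.91 with WT-SOX9 and 5.48 with SOX9+AFOS, and between 17.8 and 30.6 in the 4 others. The ligand genes Dll1, Jag2 and Jag1 had 1 each (3.62, 3.5 and 3.17), as had Hey1, a target (3.14), and Maml3, a co-activator (3.14). The Hey1 region was absent at noDOX and open with WT-SOX9 (9.12) and SOX9+ARID1a (3.15).

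Among the EGF receptors, ligands and regulators, Lrig1, which restrains ERBB receptors and marks stem cells of the upper follicle, had 2 (8.72 with a GATA match, and 3.85), and Epgn, a ligand, had 1 (4.14), or 2.54% of 118. Of the AP1 subunits, Fosl2 had 2 (5.98 and 4.68) and Batf 1 (3.14), or 4.35% of 69. The stronger Fosl2 region lay 131 bp from an annotated start of the gene and held an AP1 match. It was open at noDOX (4.59) and with ΔHMG-SOX9 (7.53), ΔTA-SOX9 (4.57), AFOS (9.62) and SOX9+ARID1a (8.14), and had no peak with WT-SOX9 or SOX9+AFOS. Of the nuclear receptors, Rora, Rarg and Rxra had 1 each (4.47, 3.73 and 3.17), or 3.03% of 99. The share over all D0 regions was 2.56%. The Rarg region, 87 bp from a start, was open in all 7 culture lists.

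Genes of hair follicle stem cells had 4 D0-only regions, or 1.93% of the 207 D0 regions of that list, beside 2.56% over all. They were near Nfib (6.90 and 4.85), Foxc1 (4.38) and Lhx2 (3.30, 50 bp from a start), all transcription factor genes. Across the 8 lists of epidermal and follicle genes, 34 members had a nearest gene on a list, and 5 of them had a noDOX peak, beside 10.6% of all D0-only regions.

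Markers of other skin cells were examined as well, since a sort can leave some of them in. Of the D0 regions nearest to such markers, 2 of 28 were D0-only for fibroblast genes (Col3a1 at 7.89 and Dcn at 5.01), 1 of 24 for melanocyte genes (Mitf at 6.12), 1 of 14 for leukocyte genes (a region 544045 bp from Ptprc, at 6.12) and 1 of 27 for endothelial genes (Tek at 3.30). These are 7.14%, 4.17%, 7.14% and 3.70%, beside 2.56% over all D0 regions, and each rests on 1 or 2 regions. The number of genes with a peak within 1 kb of a start was 2 of 8 fibroblast genes in all 5 lists and 3 of 8 melanocyte genes in all 5 lists. It was 0 to 2 of 12 leukocyte genes and 1 to 4 of 7 endothelial genes, with 2 and 3 at D0. The Col3a1 region was open in culture at noDOX (5.90) and with ΔHMG-SOX9 (6.83), ΔTA-SOX9 (9.93) and AFOS (6.39). The part of other cell types in the D0-only regions was not tested.

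The 1424 regions were spread over 1202 nearest genes, of which 1023 had 1 region, 146 had 2 and 33 had 3 or more. Of the 1202 genes, 1062 had a D0 region that was present in all 5 in vivo lists. Such regions were 37116 of the 55667 D0 regions. The same share over all 14853 genes nearest to a D0 region was not computed, so the count is no result about these genes. For 73 genes the D0-only regions were the only D0 regions. The gene with the most was Opcml, which encodes an IgLON adhesion protein, with 5 of its 10 D0 regions (scores 3.14 to 4.30) and none of the 10 present in all 5 lists. The number of open regions nearest to Opcml was 10 in the D0 list and then 5, 2, 3 and 1 in the later lists, a fall that the choice of a gene with many D0-only regions fixes in part, as it does for Abcg2. Next were 8 genes with 4 each, led by Abcg2, a drug efflux transporter, with 4 of 14 (4.09 to 8.10), where the number of open regions was 14 in the D0 list and then 7, 10, 7 and 8. The others were Diaph3, a formin, with 4 of 16, Dlg2, a scaffold gene, with 4 of 36, Usp25, a deubiquitinase, with 4 of 24, Nckap5 with 4 of 29, Robo1, a receptor for SLIT proteins, with 4 of 25, Atp10a, a lipid flippase, with 4 of 34, and Ankrd6, a gene of planar cell polarity, with 4 of 9. Of the genes with 3 members, Gm13283 had the highest summed D0 score and all 3 of its D0 regions were D0-only. Several of these genes are large, Opcml spanning 1135 kb and Dlg2 1973 kb, but Abcg2 spans 111 kb and Usp25 103 kb. The part of gene length in these counts was not tested.

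By position, 50.9% of the D0-only regions lay in introns (725 regions), 40.7% between genes (580), 6.18% in non-coding exon sequence (88) and 2.18% in coding exons (31). The other D0 regions had 44.2%, 37.3%, 14.1% and 4.38%. A start site lay within 1 kb for 13.8% of the D0-only regions (197 of 1424, interval 12.1 to 15.7%), against 29.6% of all D0 regions and 30.0% of the other D0 regions, a difference of -16.2 percentage points (-17.9 to -14.2). Weak D0 peaks are in general further from start sites, and with the other D0 regions brought to the same distribution over 10 bins of D0 score their share was 19.4%. Among the regions present in all 5 lists it was 37.9%, and among those at D0 and W1 only it was 8.36%. The median distance to a start was 8901 bp, and 12.4% lay over 50 kb away (176 regions), against 7.08% of the other D0 regions. The nearest D0 peak that was no member lay at a median gap of 4900 bp, and 719 members (50.5%) had one within 5 kb, so about as many were isolated at that distance as were not.

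GATA matches were more frequent in the D0-only regions than in the other D0 regions. The share, 20.4% (interval 18.4 to 22.5%), was 9.42 percentage points above the 10.9% of the other D0 regions (7.39 to 11.6). It was 8.69 points above the other D0 regions of the same D0 scores, and 8.13 points above when regions within 1 kb of a start site were left out of both groups. The GATA letters are rich in A and T, and the central 200 bp of the D0-only regions had a median GC content of 48.0% against 51.5%. Set against other D0 regions of the same GC content, an alternative added after the data were seen, the difference was 5.79 points. Among the members the share was higher at higher D0 scores, going from 16.7% at 3 to 3.5 and 19.5% at 3.5 to 4 to 22.9% at 4 to 5, 25.2% at 5 to 6 and 27.4% at 6 to 8. It was 25% in the 28 members at 8 to 10 and 40.0% in the 15 members at 10 or over, with intervals of 12.7 to 43.4% and 19.8 to 64.3%. In the other D0 regions it lay between 10.1 and 12.2% in all 7 bins.

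**Figure D2:**
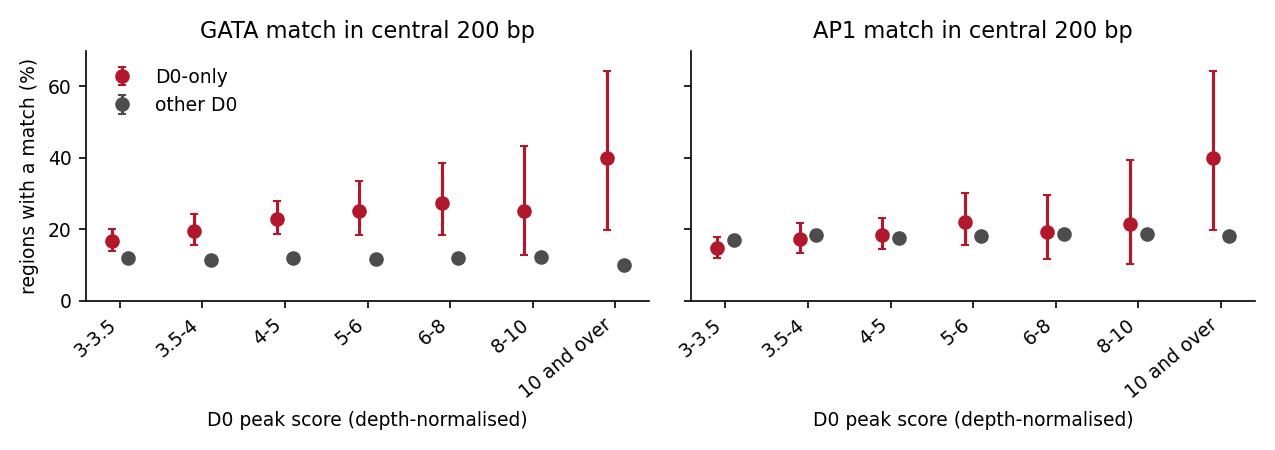
Share of D0-only (red) and other D0 regions (grey) with a GATA match (left) and an AP1 match (right) in the central 200 bp, by bin of the D0 peak score, with 95% Wilson intervals. The GATA share of the D0-only regions lies above that of the other regions in each bin, at 16.7% against 12% in the lowest, and the AP1 shares overlap up to a score of 8 to 10.

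Along the D0-only regions GATA matches were more frequent near the peak summit than further out. In bins of 40 bp, 5.13% of them had a match just upstream of the summit (-40 to 0 bp, interval 4.10 to 6.40%) and 2.39% at -400 to -360 bp (1.71 to 3.32%). In the other D0 regions the same bins held 2.39% (2.26 to 2.52%) and 2.24% (2.12 to 2.37%). These regions also rose at the centre, from 1.98% at -200 to -160 bp (1.87 to 2.10%) to 2.54% at 0 to 40 bp (2.41 to 2.67%), where the D0-only regions held 3.16% (2.37 to 4.20%) and 4.71% (3.72 to 5.93%). AP1 matches were most frequent at the summit in both, with 4.92% at -40 to 0 bp in the D0-only regions and 5.59% in the other D0 regions. SOX matches (ACAATAG or ACAATGG) were not: they were at 0.913% there in the D0-only regions and at 1.05% in the outermost upstream bin.

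**Figure D3:**
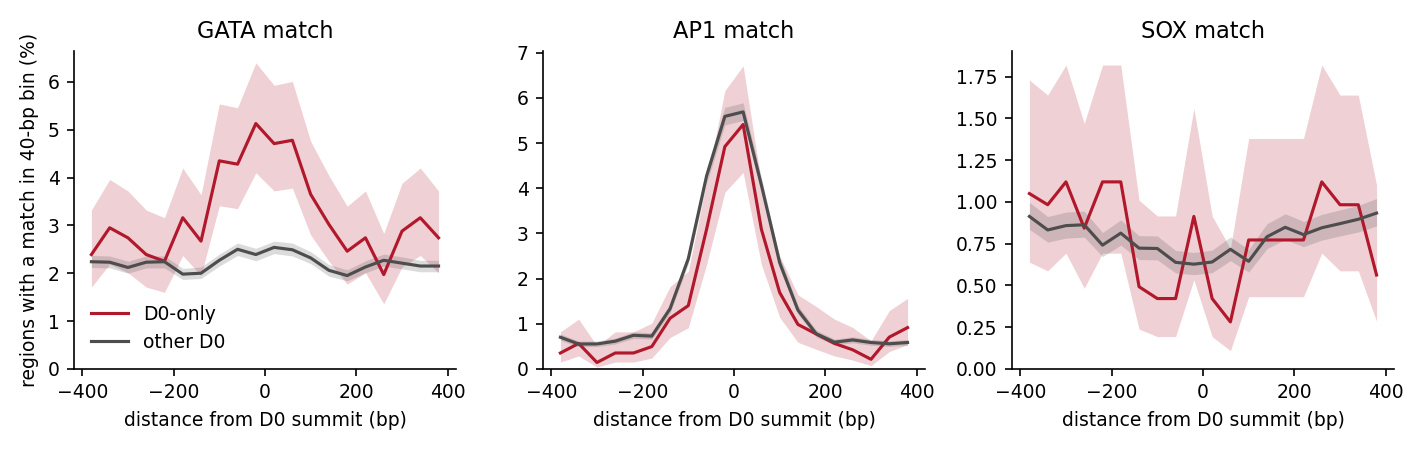
Share of D0-only (red) and other D0 regions (grey) with a GATA, AP1 or SOX match in each 40-bp bin within 400 bp of the D0 summit; shaded bands are 95% Wilson intervals and each panel has its own vertical scale. GATA matches peak at the summit in the D0-only regions (5.13%) and are fewer there in the others, which also rise at the centre (2.54% at 0 to 40 bp), while AP1 matches peak in both.

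The AP1 share, in contrast, was not distinguishable from that of the other D0 regions, at -0.739 percentage points (-2.65 to 1.34), and its sign depended on the rule. With a score of at least 5 in each in vivo list the difference was 1.9 points, and with the W12 list left out it was 5.34, whereas with the W1 list left out it was -6.32 and with regions near start sites left out -4.74. The regions at D0 and W1 only had a GATA share of 25% and an AP1 share of 10.6%.

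Other letters were sought in the same windows. SOX matches were present in 2.53% of D0-only regions (36 of 1424, interval 1.83 to 3.48%), against 3.19% of all D0 regions. RUNX (TGTGGT) matches were present in 13.3%, against 12.4%, and TEAD (GGAATG) matches in 16.6%, against 13.3%. At the same D0 scores the other D0 regions had 3.77% for SOX and 13.8% for RUNX. TP63 matches, searched by a consensus of its half-site, were present in 9.62%, against 8.89%, and KLF (GGGTGTGG) matches in 4.63%, against 4.38%. TFAP2 (GCCNNNGGC) matches, which are rich in G and C, were present in 7.16%, against 11.9%. CTCF matches were present in 1.33% (19 regions), against 2.10%, and the other D0 regions of the same D0 scores had 4.51%. The C/EBP (TTGCGCAA) letters were found in 2 D0-only regions and the NFI consensus in 0, against 0.122% and 0.0413% of all D0 regions. The TBX letters (AGGTGTGA), taken as a control, were present in 1.19%, against 1.21%. No match says only that these letters are not in this window.

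**Figure D4:**
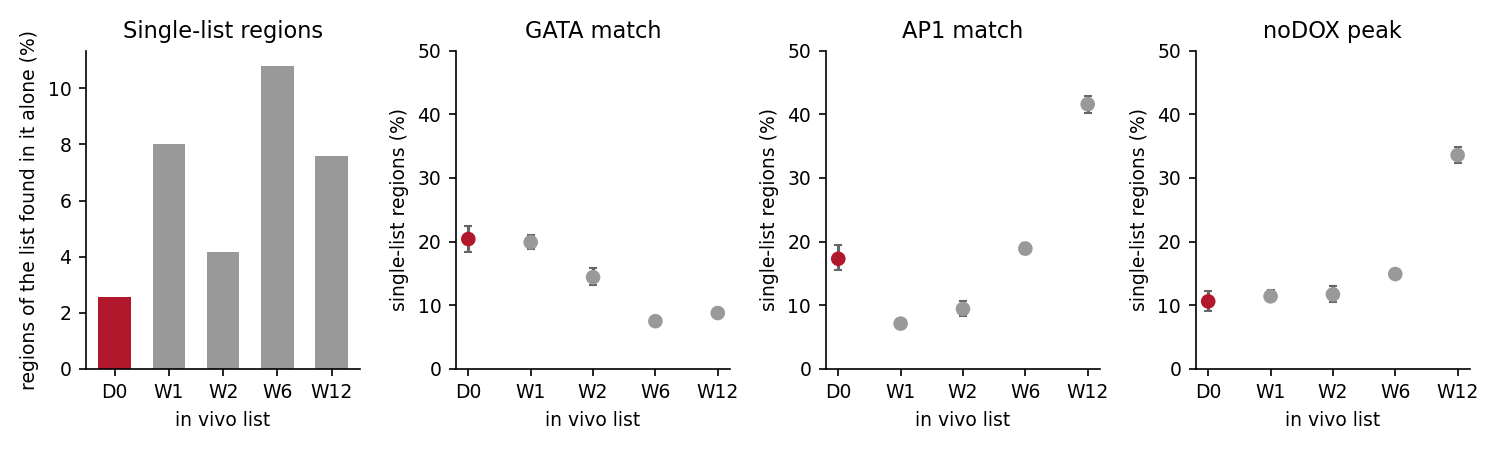
Regions found in 1 in vivo list alone, D0 in red and the later lists in grey: as a share of the list's regions, and the share of them with a GATA match, an AP1 match (each in the central 200 bp of the list's own peak) and a noDOX culture peak, with 95% Wilson intervals. In the lists as deposited 2.56% of D0 regions are single-list regions, and their GATA share (20.4%) is close to that of W1 (19.9%) and above that of W6 (7.49%) and W12 (8.77%).

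Among the regions found in a single in vivo list, those of D0 and W1 had near GATA shares, 20.4% and 19.9%, with overlapping intervals (18.4 to 22.5% and 18.8 to 21.1%). W2-only regions had 14.4%, W6-only 7.49% and W12-only 8.77%. AP1 matches set D0 apart from W1, at 17.3% (15.5 to 19.4%) against 7.11% (6.40 to 7.89%), and from W2 (9.41%) and W12 (41.6%), and not from W6 (18.9%, 18 to 19.8%). SOX matches were present in 2.53% of the D0-only and 2.44% of the W1-only regions and in 9.72% and 9.20% of the W2-only and W6-only regions. The lowest score admitted rests on different evidence in each list, and its part in these differences was not tested.

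Few D0-only regions were open in cultured EpdSCs. A noDOX peak was present in 10.6% (151 of 1424, interval 9.11 to 12.3%), against 59.1% of all D0 regions, and the difference from the other D0 regions was -49.8 percentage points (-51.3 to -48). A low share was not particular to the D0-only regions, since the regions at D0 and W1 only had 8.68%. Among the regions found in a single later list, a noDOX peak was present in 11.4% for W1, 11.7% for W2, 14.9% for W6 and 33.6% for W12. Low D0 scores accompany low culture shares, and the other D0 regions of the same D0 scores had 40.9%, or 30.3 points more than the members. Within the members the share lay between 8.13 and 12.3% in the 6 score bins under 10, whereas in the other D0 regions it went from 36.2% in the lowest of these bins to 52.9% in the highest. Members with and without a GATA match had similar shares, 11.7% (34 of 290) and 10.3% (117 of 1134), and so had those with and without an AP1 match, 12.6% and 10.2%. In the other D0 regions the GATA-matched had the smaller share, 42.2% against 62.7%.

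In the 6 arms given DOX the D0-only regions had peaks in 6.74% with WT-SOX9 (96 regions), the smallest share, and in 10.6% with ΔHMG-SOX9 (151), 12.1% with ΔTA-SOX9 (172), 11.9% with AFOS (169), 9.97% with SOX9+AFOS (142) and 10.5% with SOX9+ARID1a (150). Over all D0 regions these shares were 52.7%, 54.6%, 54.8%, 54.3%, 52.0% and 53.9%. In all, 1097 D0-only regions (77.0%) had no peak in any of the 7 culture lists, against 28.7% of the other D0 regions, and 34 (2.39%) had one in all 7, against 37.8%. Of the D0 and W1-only regions 81.4% were in no culture list (80.1 to 82.5%, against 74.8 to 79.1% for the D0-only regions).

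**Figure D5:**
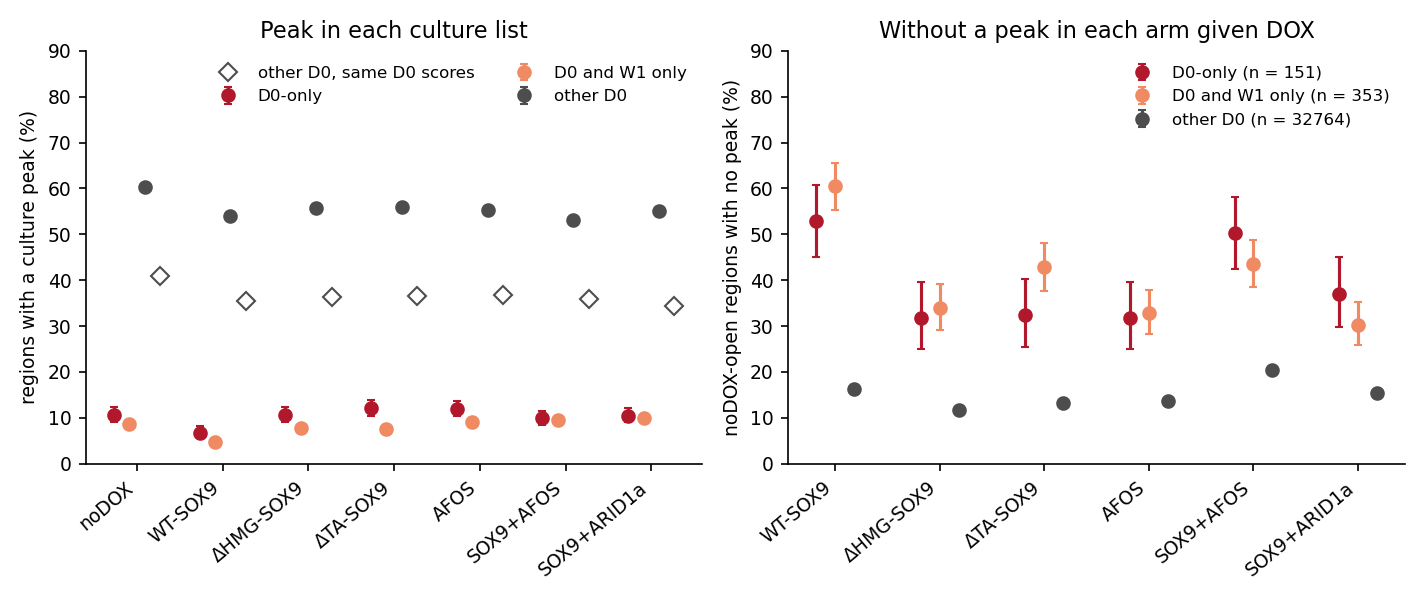
Left, share of D0-only (red), D0 and W1-only (orange) and other D0 regions (grey) with a peak in each culture list, with 95% Wilson intervals; open diamonds are other D0 regions brought to the D0 scores of the D0-only regions. Right, of the regions with a noDOX peak, the share without a peak in each arm given DOX. D0-only regions are open in 6.74 to 12.1% of cases by list, and WT-SOX9 (53.0%) and SOX9+AFOS (50.3%) leave the most of their 151 noDOX-open regions without a peak.

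Of the 151 D0-only regions that were open at noDOX, WT-SOX9 and SOX9+AFOS left the most without a peak. WT-SOX9 had no peak at 80 of them (53.0%, interval 45.0 to 60.8%), against 16.4% of all D0 regions with a noDOX peak, a difference of 36.7 percentage points from the other D0 regions (28.8 to 44.5). This was not particular to the D0-only regions, since among those at D0 and W1 only WT-SOX9 had no peak at 214 of 353 (60.6%, 55.4 to 65.6%). SOX9+AFOS had no peak at 50.3% (76 regions, against 20.6% of all), and SOX9+ARID1a at 37.1% (56, interval 29.8 to 45.0%, against 15.5%). The share without a peak was 31.8% with ΔHMG-SOX9 (48, against 11.9%), 32.5% with ΔTA-SOX9 (49, against 13.3%) and 31.8% with AFOS (48, against 13.7%), and the intervals of these 3 arms overlap that of SOX9+ARID1a. Over all D0 regions the highest shares were likewise those of SOX9+AFOS and WT-SOX9. Among the regions at D0 and W1 only SOX9+ARID1a had the lowest share of the 6 arms (30.3%), beside 32.9% with AFOS, 34% with ΔHMG-SOX9, 42.8% with ΔTA-SOX9 and 43.6% with SOX9+AFOS. Of the 151, WT-SOX9 and SOX9+AFOS both lacked a peak at 55 (36.4%, against 10.7% of all D0 regions with a noDOX peak) and WT-SOX9 and ΔHMG-SOX9 both at 34 (22.5%, against 6.85%). A peak was absent with WT-SOX9 and present with SOX9+ARID1a at 42 (27.8%, against 9.66%). All 6 arms lacked a peak at 5 (3.31%, against 1.47%), and 34 kept one in all 6 (22.5%, against 62.5%). The 6 arms share 1 noDOX list, so their values are not independent of each other. In the SOX9+ARID1a list and both AFOS lists the names of peaks show fragments as the caller's input, and the part of this in their values was not tested.

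Weak culture peaks are lost more readily, and the noDOX peaks of the D0-only regions were weak, with a median score of 5.90 (quartiles 4.15 and 11.6) against 17.0 (8.13 and 32.8). Split by the noDOX score, WT-SOX9 had no peak at 69.4% of the members with a noDOX score of 3 to 5 (43 of 62), against 59.5% of the other D0 regions. At 5 to 10 it was 55.3% (21 of 38) against 32%, and at 10 and over 31.4% (16 of 51) against 4.50%. The last bin has no upper limit and does not equalise the scores. The highest noDOX score was 53.8 in the members and 2310 in the other D0 regions. With the other D0 regions brought to the same noDOX scores, an alternative added after the data were seen, the difference of 36.7 points became 17.0.

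The members with the highest noDOX scores that had no WT-SOX9 peak were chosen after their values were seen. The strongest lay in an intron of Eea1, an endosome tethering gene, at chr10:95941703-95942059, with a D0 score of 3.79 and a noDOX score of 53.8, and it had a peak in no other culture list but that of ΔTA-SOX9 (3.4). A region in an intron of Pign (noDOX score 27.6) had peaks with ΔHMG-SOX9 (33.5), ΔTA-SOX9 (44.3) and AFOS (34.5) and none in the 3 lists with full-length SOX9, but 75.5% of its sequence is repeat-masked. A region in an intron of Frmd4a, a cell polarity scaffold, scored 20 without DOX, 5.16 with ΔHMG-SOX9, 13.0 with ΔTA-SOX9, 3.16 with AFOS and 11.6 with SOX9+ARID1a, and had no peak with WT-SOX9 or SOX9+AFOS. One in an intron of Sash1 (17.4) was seen otherwise with ΔTA-SOX9 alone (7.99). The region 46332 bp from Efnb1, an ephrin ligand gene (15.1), had peaks with ΔHMG-SOX9 (10), SOX9+AFOS (21.5) and SOX9+ARID1a (18.6). These losses therefore did not share 1 pattern over the arms. The regions near Eea1, Sash1 and Efnb1 lay 110, 173 and 80 bp from a later in vivo peak, so they are not D0-only where peaks up to 500 bp apart are merged.

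The 1273 D0-only regions without a noDOX peak seldom gained one. A peak was present in 1.96% with WT-SOX9 (25 regions), against 8.01% of all D0 regions without a noDOX peak. It was present in 3.77% with ΔHMG-SOX9 (48, against 6.13%), 5.50% with ΔTA-SOX9 (70, against 8.57%), 5.18% with AFOS (66, against 8.06%), 5.26% with SOX9+AFOS (67, against 12.3%) and 4.32% with SOX9+ARID1a (55, against 9.73%). WT-SOX9 thus had the smallest share of newly open members among the 6 arms. Its share of newly closed members was the largest (53.0%, interval 45.0 to 60.8%), but this interval overlaps that of SOX9+AFOS (50.3%, 42.4 to 58.2%). Over all D0 regions with a noDOX peak SOX9+AFOS had the larger closed share, 20.6% against 16.4%. The WT-SOX9 list held 52278 peaks, those of the 5 other arms held 49458 (SOX9+AFOS) to 60231 (AFOS), and the part of list length in these shares was not tested.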

How the data were processed

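As the study's methods describe it, the authors mapped ATAC-seq read pairs to GRCm38 (mm10) in PEPATAC, merged both replicates of a group, called peaks with MACS2 while keeping duplicates, and removed peaks under a normalised score of 3. The submitters' processing notes name Bowtie2 2.2.9, Picard 2.3.0, SAMtools 1.9 and MACS2 2.1.1. The deposited files hold the score, and for the in vivo lists also the fold enrichment and the −log10 q-value of each peak as the authors' caller gave them. That the score is scaled to a common total was inferred from the lists' sums.

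Peaks were merged at 1 bp of overlap. Each region was represented by its highest D0 peak, and culture peaks were those touching it by 1 bp. Motifs were read from GRCm38 in the central 200 bp. Genes, exons and start sites came from GENCODE M21. Repetitiveness is the share of 32-base words found more than once. Values were computed with Python 3.11.15, numpy 2.4.6 and pandas 2.3.3, and the code was tested on simulated data. Named were the 12 highest-scoring regions, the 2 highest per gene list, the 10 genes with most regions (ties by summed score), and the 4 highest per motif for sequences, none from chromosome 18. One region that the rule names is not reported here. The regions, gene lists and motifs were chosen with earlier results of these data known. Alternatives were a stricter score, lists of equal length, a common −log10 q-value minimum, other overlap rules, and leaving out W12 or W1.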

Additional observations from a re-analysis of the deposited data

How the results depend on the processing

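No paired analysis was possible because the lists analysed here were called on the merged replicates of each group, and for the same reason no replicate could be left out. The number of D0-only regions, 1424, was 1200 to 2084 under 4 of the 7 alternatives, and moved to 2285 with lists of equal length, 4526 with a common −log10 q-value minimum of 14.5 and 5684 without W1. All 1424 were among these, but only 239 of them were among the 1200 that qualified with a score of at least 5 in each in vivo list. The values that follow are D0-only minus other D0 regions, in percentage points. The noDOX difference (-49.8) was -44.6 with lists of equal length and also with the common minimum, -42.2 without W12, -55.1 without W1, -30.3 at the same D0 scores, -41.8 over 1 kb from a start site and -43.3 at the same GC content. The WT-SOX9 closing difference (36.7) was 24.9 at the same D0 scores and 17.0 at the same noDOX scores. The GATA difference (9.42) was 6.27 with lists of equal length, 5.91 with the common minimum, 7.11 without W12, 14 without W1 and 5.79 at the same GC content. The start-site difference (-16.2) was -22.1 with a score of at least 5, -13.6 with lists of equal length, -14.1 with the common minimum, -21.7 without W1, -5.54 at the same D0 scores and -4.96 at the same GC content. These 4 kept their sign in each alternative. The AP1 difference (-0.739) did not: it was 1.9 with a score of at least 5, 0.0585 with lists of equal length, 5.34 without W12, -3.68 with the common minimum, -6.32 without W1, -4.74 over 1 kb from a start site and -4.07 at the same GC content. Matching on GC content or on noDOX scores was added after the data were seen. The cause of these shifts was not tested, except that fewer later peaks are left to exclude a region where later lists are shortened or left out. A weak later peak under the authors' score minimum cannot be told from a closed region.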

Other observations

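Some features of the D0-only regions bear on how surely they can be placed. More than 50% of the central 200 bp was repeat-masked in 4.99% of them (71 of 1424), against 2.27% of the other D0 regions. In 1.9% (27 regions), more than 50% of the 32-base words occur more than once in the genome, against 0.823%. The D0-only share of D0 regions differed between chromosomes, from 1.5% on chromosome 11 (54 of 3605) to 3.49% on chromosome X (43 of 1232). Of the D0-only regions, 34 (2.39%) started within 10 kb after another D0-only region. The same share was not computed for the other D0 regions.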
